A study of Canis lupus familiaris with 10 samples.

Results

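Calcium return was followed here in the Mock line of MDCK cells, which come from the epithelium of dog kidney and seal into sheets when calcium lets their junctions form. Of the 10 arrays of the series, 4 define the comparison: Mock cells at 0 h, after 18 h in calcium-free SMEM (18 h), and after 18 h in SMEM followed by 2 h in high-calcium DMEM, once without and once with 200 nM 12-HHT. The last 2 are called the return arrays. Tests were fitted to all 10 arrays, with an error that comes from the return arrays of the Mock and BLT2 lines. The Mock array at 2 h in SMEM and the BLT2 arrays also serve for comparison. The 0 h cells had grown to confluence in DMEM with 10% fetal calf serum. 12-HHT is a fatty acid that activates the receptor BLT2. The Mock line is the control for a line that overexpresses human BLT2, and the labels name neither its vector nor the number of clones. Each array was hybridised with RNA mixed from 3 preparations, so preparations were averaged beforehand and there are no replicate arrays. The series title asks what 12-HHT and BLT2 do to expression after the calcium switch. The Mock arrays give the response to calcium return without added BLT2.

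Calcium holds the outer domains of cadherins in their adhesive form, so taking it away pulls epithelial cells apart and giving it back lets adherens junctions and then tight junctions be rebuilt. Cell rounding and loss of contact act on the Hippo pathway, whose coactivators YAP and TAZ switch on growth genes with TEAD factors. Poor medium or a disturbed endoplasmic reticulum acts through the kinases that phosphorylate eIF2 alpha, raising ATF4, ATF3 and CHAC1 in the integrated stress response. SMEM and DMEM differ in more than calcium, and whether the return medium held serum is not stated. The effects of calcium, medium and the further 2 h of culture therefore cannot be told apart.

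Of 10498 genes above the signal filter, 8599 had both return arrays on the same side of 18 h, 4428 higher and 4171 lower. Both changes are taken from the same 18 h array, so its own error pushes them the same way. A size rule was therefore laid over the direction: a change of at least 1 on the log2 scale (2-fold) in both return arrays, with the highest of the 3 signals above the filter level of 7.21. It was met by 21 genes that were higher (0.2% of those tested) and 32 that were lower (0.305%), 53 together (0.505%). In the linear model fit of limma, 179 genes rose (1.71%) and 535 fell (5.1%), 714 together (6.8%), at a Benjamini-Hochberg adjusted p of 0.05. The fit called all 21 of the higher and 29 of the 32 lower genes. Its error comes from the gap between the 2 return arrays of each line, which differ by 12-HHT. The single 18 h array is assumed to vary as they do. The lower genes not called were ANKRD1, EREG and KLF10. Their gaps (array with 12-HHT minus array without) were -0.13, 0.33 and 0.16 in Mock and 1.62, 1.27 and 0.87 in BLT2 cells. With 1 return array left out, the error comes from the return pair of the other line alone. A call lost without a Mock return array therefore does not measure the spread in Mock. The S18D2 array alone gave 84 genes 2-fold lower and the array with 12-HHT 35, against 24 and 22 higher. Without the S18D2 array the fit called 43 higher and 125 lower, and without the 12-HHT array 111 and 502.

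Listed genes called with a change under 2-fold mostly lost the call when 1 Mock return array was left out. The error of those fits comes from the BLT2 return pair alone. The smallest changes inside the size rule were IL10RA at 1.04 and TSKU at 1.05 on the higher side and TSC22D3 at -1.002 and EFNA1 at -1.01 on the lower side, each the smaller of the 2 return changes. Just outside lay IDO1 at 0.98 and S100A2 at 0.96, and PCF11 at -0.99 and GGNBP2 at -0.98. Array medians ran from 7.16 to 7.27 and each array's mean correlation with the remaining arrays from 0.945 to 0.960 over kept genes. Of the 6 epithelial markers 6 exceeded the filter level, with a mean log2 signal of 10.9 to 11.2 across Mock arrays. Fibroblast, endothelial and leukocyte markers averaged 6.23 to 6.53, 6.06 to 6.36 and 5.55 to 5.69, and 1 marker of each list exceeded the level on any Mock array. These were COL1A1 (up to 7.63), VWF (up to 7.45) and CD14 (up to 7.77). KRT8 of the epithelial list was in the same range, at 7.21 to 7.61. Among the markers under the filter level were PTPRC of leukocytes (4.76 to 4.93) and PECAM1 of endothelium (5.31 to 5.73). LTB4R2, the gene of BLT2, was paired with no probe set in the annotation used and was not analysed here.

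**Figure D1:**
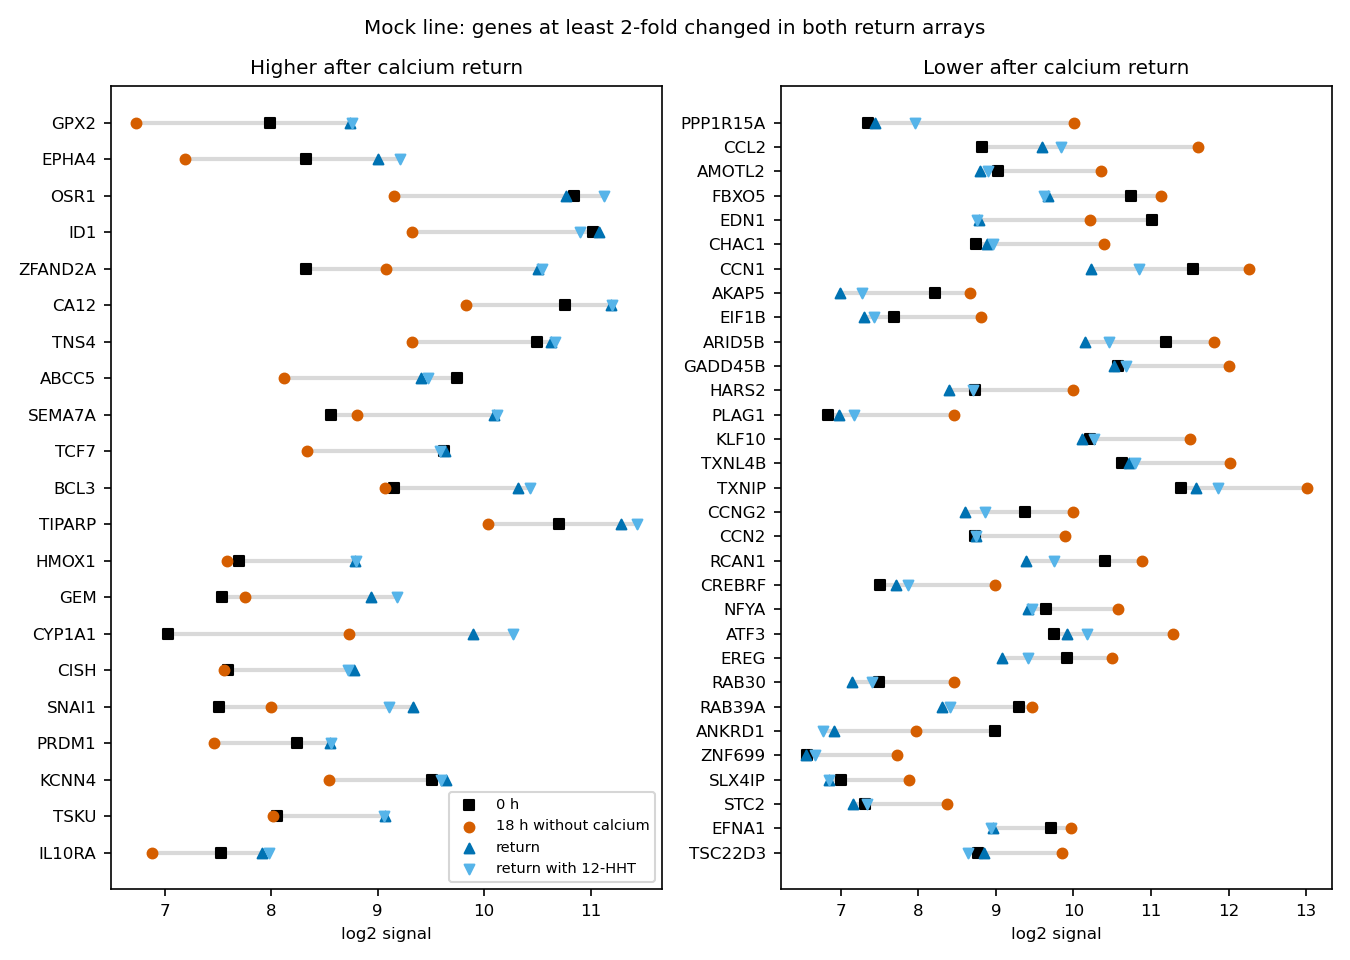
Log2 signal (x axis) of the 21 higher and 31 symbol-named lower genes that changed at least 2-fold in both return arrays of the Mock line, 1 array per mark. Squares show 0 h, circles 18 h without calcium, and triangles the 2 return arrays. PPP1R15A and CCN2 lie close to 0 h after return, while EDN1 and CYP1A1 lie farther from it than at 18 h.

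Among the genes that fell on return, the largest change was in PPP1R15A, the regulatory subunit that directs a phosphatase to eIF2 alpha and so restarts translation after stress. Its log2 signal was 7.35 at 0 h, 10.01 at 18 h, 7.44 after return and 7.95 after return with 12-HHT. Both return arrays lay far below 18 h and just above 0 h. The mean fall was -2.31 ± 0.21 (SE, limma adjusted p = 0.0095), a 4.97-fold change that covered 86.9% of the way back to 0 h.

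CHAC1, which breaks down glutathione downstream of ATF4, was at 8.74, 10.39, 8.88 and 8.97 in the same order. Its fall of -1.46 ± 0.21 (limma adjusted p = 0.0227) covered 88.7% of the way back. The stress transcription factor ATF3 was at 9.74, 11.29, 9.91 and 10.18 and fell by 1.24 ± 0.15 (limma adjusted p = 0.0146). STC2, a secreted glycoprotein induced by ATF4, was at 7.31, 8.37, 7.15 and 7.34, level with 0 h on both return arrays. CREBRF, a regulator of the unfolded protein response, was at 7.51, 8.99, 7.71 and 7.86, and HARS2, the mitochondrial histidyl-tRNA synthetase, at 8.73, 10.00, 8.40 and 8.70. In each of these the 2 return arrays lay near 0 h and more than 1 below 18 h. CHAC1 was not called without the S18D2 array (adjusted p = 0.0807).

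Of 29 kept genes of the integrated stress response list, 7 fell and 1 rose by limma, and 2 fell at least 2-fold in both arrays. The list median was -0.19, against 0.01 over all genes. Besides CHAC1 and STC2 the genes that fell were SLC38A2, a transporter of neutral amino acids (-1.01 ± 0.11), SESN2, a leucine sensor upstream of mTORC1 (-0.92 ± 0.13), the hormone FGF21 (-0.77 ± 0.08), the pseudokinase TRIB3 (-0.75 ± 0.10) and the folate enzyme MTHFD2 (-0.69 ± 0.14). CTH, which makes cysteine, rose by 0.36 ± 0.07. Without 1 of the return arrays 3 of these 8 calls stood, those of STC2, SLC38A2 and FGF21. In the list of endoplasmic reticulum chaperones and the unfolded protein response, 2 of 23 fell and 2 rose (median 0.04). XBP1, whose spliced form drives chaperone genes, fell by 0.48 ± 0.07 and its activator ERN1 by 0.92 ± 0.18, while EDEM1 and SDF2L1 rose by 0.38 ± 0.07 and 0.37 ± 0.08. All 4 calls were lost without 1 of the return arrays (adjusted p = 0.0863 to 0.153).

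Targets of YAP and TEAD made up a second part of the genes that fell. CCN1, a secreted matricellular protein, was at 11.54 at 0 h, 12.26 at 18 h, 10.23 after return and 10.84 with 12-HHT. Both return arrays lay below 0 h as well as below 18 h. The fall was -1.72 ± 0.30 (limma adjusted p = 0.0333), and the level after return was -1.0 ± 0.30 against 0 h (limma adjusted p = 0.0429, and 0.0982 without 1 of the return arrays). The related CCN2 was at 8.73, 9.89, 8.74 and 8.74, so its 18 h rise was gone on both arrays, 99.3% of the way back. AMOTL2, an angiomotin that holds YAP at junctions, was at 9.03, 10.36, 8.80 and 8.90 and fell by 1.51 ± 0.29 (limma adjusted p = 0.0413). ANKRD1, a nuclear ankyrin protein, was at 8.98, 7.97, 6.91 and 6.78, below 0 h at 18 h and lower still after return. Its array with 12-HHT minus the return array without it was -0.13 in Mock and 1.62 in BLT2 cells, and both gaps enter the error. Its change of -1.12 ± 0.59 was 2-fold in both arrays but was not called (limma adjusted p = 0.294).

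In all, 7 of 17 kept YAP and TEAD targets fell and 0 rose by limma, and 4 were at least 2-fold lower. The other 4 that fell were the kinase LATS2 (-0.93 ± 0.14), the ligand TGFB2 (-0.56 ± 0.10), the LIM protein AJUBA (-0.45 ± 0.08) and the phosphatase PTPN14 (-0.45 ± 0.07). LATS2 and PTPN14 restrain YAP. The list median was -0.17. The limma calls of this list were lost without 1 of the Mock return arrays, in fits whose error comes from the BLT2 pair alone. The array with 12-HHT minus the return array without it was -0.003 in Mock and 0.55 in BLT2 cells for CCN2. These gaps were 0.10 and 0.78 for AMOTL2, and 0.61 and 0.54 for CCN1.

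Immediate early genes, which growth factors and stress switch on within minutes, went both ways. Of 27 kept, 9 fell and 3 rose by limma, with a list median of -0.11. GADD45B, a stress gene that acts on p38 and JNK signalling, was at 10.57, 12.00, 10.53 and 10.68, both return arrays level with 0 h, and fell by 1.40 ± 0.25 (limma adjusted p = 0.0345). The survival factor MCL1 fell by 0.99 ± 0.11, the phosphatase DUSP1 by 0.99 ± 0.18, KLF6 by 0.92 ± 0.08 and MYC by 0.83 ± 0.11. JUN fell by 0.44 ± 0.09, whereas its relatives JUNB and JUND rose by 0.66 ± 0.13 and 0.62 ± 0.08, and IER3, an inhibitor of cell death, rose by 0.73 ± 0.08. KLF10, a TGF-beta induced repressor, was at 10.21, 11.51, 10.11 and 10.27, a change of -1.32 ± 0.32 that was not called (limma adjusted p = 0.0734). In the ERK feedback list DUSP6, SPRY1 and SPRY2, which damp the pathway, fell by 0.66 ± 0.07, 0.87 ± 0.12 and 0.63 ± 0.13, and 1 of 15, EPHA4, rose. Without 1 of the return arrays the calls of GADD45B (adjusted p = 0.119), JUN, JUNB, JUND, EGR2, SPRY1 and SPRY2 were lost.

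TXNIP, an inhibitor of glucose uptake that rises when sugar phosphates accumulate, had one of the highest signals among these genes, at 11.39, 13.01, 11.58 and 11.86. It fell by 1.29 ± 0.15 (limma adjusted p = 0.0140), 79.4% of the way back. Its paralogue ARRDC4 fell by 1.07 ± 0.15. CCNG2, an atypical cyclin of resting cells and a FOXO target, was at 9.38, 10.00, 8.60 and 8.86, below 0 h on both return arrays. RCAN1, which inhibits calcineurin and is itself induced by calcium signalling, was at 10.41, 10.89, 9.39 and 9.75 and fell by 1.31 ± 0.15 (limma adjusted p = 0.0139). In the list of FOXO and growth factor withdrawal genes, which also holds TXNIP, 5 of 17 fell and 0 rose (median -0.24), and the calls of TXNIP and CCNG2 stood without either return array. Of 17 calcium handling genes RCAN1 alone was called.

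CCL2, the chemokine that draws monocytes, was at 8.82, 11.61, 9.59 and 9.84 in Mock cells. It fell by 1.89 ± 0.11 (limma adjusted p = 0.00932) and stood 0.90 ± 0.11 above 0 h after return. FBXO5, which holds back the anaphase-promoting complex, was at 10.74, 11.13, 9.67 and 9.62, and EDN1, the peptide endothelin-1, at 11.01, 10.21, 8.78 and 8.76. Both ended below 0 h. EDN1 had already been lower at 18 h and fell by a further 1.44 ± 0.15 (limma adjusted p = 0.0118), to -2.24 ± 0.15 against 0 h. AKAP5, a scaffold for protein kinase A, ARID5B, a chromatin factor, and EFNA1, an ephrin ligand, also fell below 0 h, at -1.08 ± 0.13, -0.89 ± 0.23 and -0.76 ± 0.09 against 0 h. Without the S18D2 array the return call of ARID5B was lost (adjusted p = 0.0786). The other lower genes with symbols were the translation factor EIF1B, the zinc finger genes PLAG1 and ZNF699, TXNL4B, the CCAAT-binding subunit NFYA, the glucocorticoid-induced TSC22D3, the GTPases RAB30 and RAB39A, SLX4IP, and EREG, an EGF receptor ligand. EREG, at 9.92, 10.50, 9.08 and 9.41, was not called (limma adjusted p = 0.173). The 13 genes of the size rule that the rule for naming did not reach were named after their values were seen, as were listed genes changed less than 2-fold.

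Genes that rose began with GPX2, an epithelial glutathione peroxidase, at 7.99 at 0 h, 6.73 at 18 h, 8.74 after return and 8.76 with 12-HHT. The 18 h signal lay below the filter level and the rise was 2.02 ± 0.16 (limma adjusted p = 0.00932), a 4.05-fold change. Both return arrays lay above 0 h. EPHA4, an ephrin receptor, was at 8.33, 7.18, 9.001 and 9.21 and rose by 1.92 ± 0.24 (limma adjusted p = 0.0157). OSR1, a transcription factor of the early kidney, was at 10.85, 9.15, 10.77 and 11.13, on either side of 0 h after return, and its call was lost without either return array (adjusted p = 0.0705 and 0.0574). ID1, an inhibitor of helix-loop-helix factors and a target of BMP signalling, was at 11.02, 9.32, 11.08 and 10.90, which put it 98.1% of the way back. TCF7, a Wnt effector, was at 9.63, 8.34, 9.63 and 9.59, 98.7% of the way back. TNS4, a tensin of focal adhesions, was at 10.50, 9.32, 10.63 and 10.67, just above 0 h.

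CA12, a carbonic anhydrase at the cell surface, was at 10.76, 9.83, 11.19 and 11.20, and the exporter ABCC5 at 9.74, 8.12, 9.41 and 9.47. CA12 stood above 0 h after return (0.43 ± 0.11, limma adjusted p = 0.0249, and up to 0.0635 without 1 return array), whereas ABCC5 covered 81.5% of the way. KCNN4, a potassium channel opened by calcium, was at 9.51, 8.54, 9.65 and 9.59. PRDM1, a transcriptional repressor, was at 8.24, 7.46, 8.55 and 8.56, and the cytokine receptor chain IL10RA at 7.53, 6.88, 7.92 and 7.98. All 5 were lower at 18 h than at 0 h and near or above 0 h on both return arrays. The calls of KCNN4, PRDM1 and IL10RA were lost without the S18D2 array (adjusted p = 0.0558, 0.072 and 0.0522).

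Of the listed genes that answer the aryl hydrocarbon receptor, a sensor of tryptophan products and pollutants, 6 of 13 passed the signal filter and 4 of those rose. CYP1A1, its classical target, was at 7.03 at 0 h, 8.73 at 18 h, 9.89 after return and 10.27 with 12-HHT. It was already above 0 h at 18 h and moved farther away, by 1.35 ± 0.16 (limma adjusted p = 0.0139). TIPARP, a feedback repressor of the receptor, was at 10.71, 10.04, 11.28 and 11.44 and rose by 1.32 ± 0.12 (limma adjusted p = 0.00954). CYP1B1 rose by 0.64 ± 0.10 and IDO1, which makes the tryptophan product kynurenine, by 1.03 ± 0.08. With these, 4 of 6 kept genes of the list rose and 0 fell by limma, with changes from 0.00 to 1.35 and a median of 0.84, or 0.80 to 0.85 under the other scalings. The call of CYP1B1 alone was lost without 1 return array (adjusted p = 0.0548). AHR itself was at 11.14, 11.31 and 11.29 at 18 h and on the return arrays.

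HMOX1, which degrades heme and is a target of NRF2, was at 7.70, 7.58, 8.79 and 8.80, flat at 18 h and higher on both return arrays (1.21 ± 0.11, limma adjusted p = 0.00991). ABCC5, the thioredoxin reductase TXNRD1 (0.47 ± 0.08) and OSGIN1 (0.48 ± 0.08) rose with it, 4 of 14 kept NRF2 targets in all with 0 lower and a median of 0.32. The calls of HMOX1 and ABCC5 stood without either return array, and those of TXNRD1 and OSGIN1 did not. In the kidney tubule list SGK1, a kinase that supports sodium channels, rose by 0.88 ± 0.07 and the tubule factor PAX8 by 0.71 ± 0.08, with 0 of 13 lower. SNAI1, a repressor of E-cadherin, was at 7.51, 7.999, 9.33 and 9.11 and rose by 1.22 ± 0.26 (limma adjusted p = 0.0491). GRHL2, which upholds epithelial identity, fell by 0.79 ± 0.16. Without 1 return array neither was called (adjusted p up to 0.162 and 0.132).

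**Figure D2:**
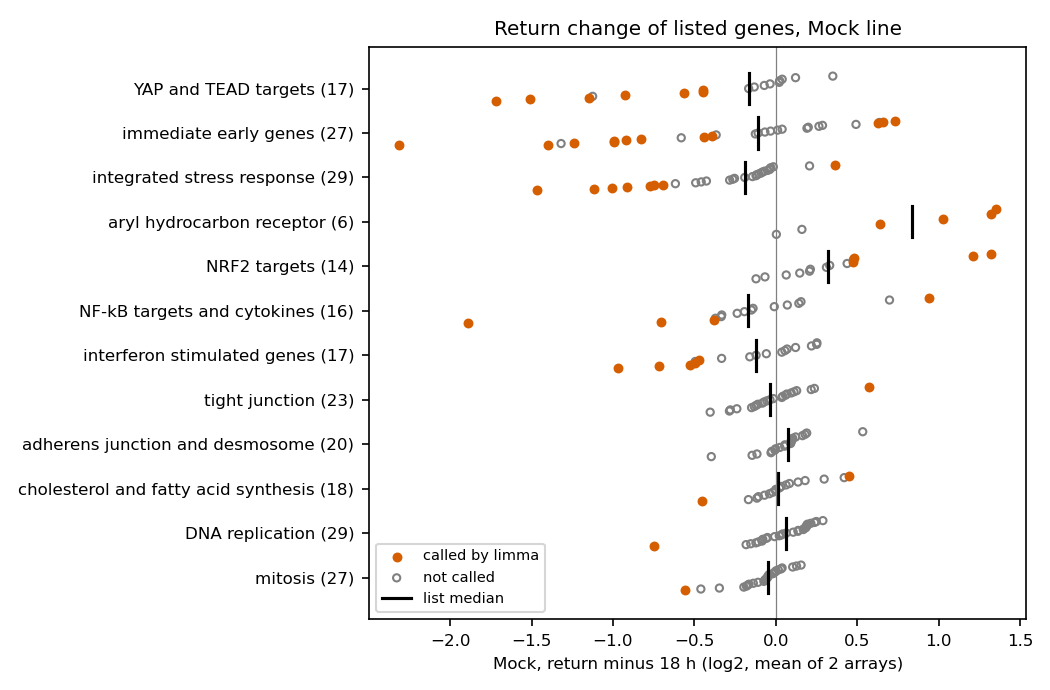
Return minus 18 h in Mock cells (x axis, log2, mean of the 2 return arrays) for the kept genes of 12 lists, with the number kept in brackets. Filled points passed limma, open points did not, and black bars are list medians. Medians lie between -0.19 and 0.84, and most listed genes sit within 0.5 of 0.

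Transcripts of the junctions themselves gave counts of calls near the 6.8% of all genes. Of 23 kept tight junction genes 1 rose, CLDN16, a pore for magnesium and calcium. CLDN16 was at 11.59 at 0 h, 9.94 at 18 h, 10.46 after return and 10.57 with 12-HHT, 34.8% of the way back (0.57 ± 0.08, limma adjusted p = 0.0236, and 0.0535 without the S18D2 array). CLDN2, which forms a sodium pore, was at 9.92, 7.47, 7.47 and 7.37, so its 18 h loss was not undone in either array. The sealing claudin CLDN4 was at 9.85, 10.995, 10.59 and 10.59 (-0.40 ± 0.19, adjusted p = 0.255). CLDN1 was at -0.12 ± 0.09 (0.466), CLDN7 at 0.11 ± 0.07 (0.380) and occludin, OCLN, at -0.13 ± 0.07 (0.317), each a change from 18 h with its adjusted p. The scaffold TJP1 (ZO-1) was at 11.76, 12.35, 12.31 and 12.31. E-cadherin, CDH1, was at 12.22, 12.84, 12.81 and 12.81, and both stayed above 0 h after return by limma (0.55 ± 0.07 and 0.59 ± 0.07). Of 20 genes of adherens junctions and desmosomes 0 were called by limma, with changes between -0.40 and 0.53. Of 15 polarity genes 1 fell, PARD6B (-0.82 ± 0.09).

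Of 18 kept genes of cholesterol and fatty acid synthesis, with a median of -0.81 at 18 h against 0 h, 1 rose and 1 fell on return, and the median return change was 0.01. These were FDFT1, squalene synthase (0.45 ± 0.07), and the desaturase SC5D (-0.46 ± 0.09), and both calls were lost without 1 return array (adjusted p up to 0.089 and 0.12). Of 17 interferon stimulated genes 5 fell and 0 rose by limma, from a median of -0.51 at 18 h. IFI44 was at 10.04, 6.88, 6.29 and 6.04, so both return arrays lay below the 18 h signal. Its 18 h and return signals were under the filter level, where differences carry little information. The factor IRF1 was 1.10 above 0 h at 18 h and fell by 0.97 ± 0.09. These 2 calls stood without either return array, and the other 3 did not. DNA replication had 1 of 29 called (GINS3, -0.75 ± 0.10), mitosis 1 of 27 (CENPA, -0.56 ± 0.07), p53 targets 1 of 18 (SESN2), and ribosome biogenesis and the eicosanoid pathway 0 of 30 and 0 of 13 in limma. With 6.8% of all genes called in either direction, counts of 0 or 1 in lists of this size are near the background.

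The distance covered toward 0 h was read from genes that had changed at least 2-fold at 18 h, 219 raised (2.09%) and 235 lowered (2.24%), 454 together (4.32%). The median gene covered 25.1% of the way back among those raised and 11.9% among those lowered. Because the 18 h array enters both differences, its error alone moves genes toward 0 h. In the raised group 30 genes were farther from 0 h after return, 134 had covered under 50%, 46 between 50% and 100%, and 9 were at or past 0 h. In the lowered group these numbers were 67, 151, 13 and 4. These shares use the mean of the 2 return arrays, whether or not both lay on the same side of 18 h. Picking genes by the 18 h change of the BLT2 line, which shares no array with these values, gave medians of 27.6% and 9.89%.

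Most of the 16 genes with the largest 18 h changes went back little on return, PPP1R15A and CCL2 apart. MT1E, a metallothionein that binds zinc, was at 6.87 at 0 h, 10.62 at 18 h, 10.48 after return and 10.79 with 12-HHT. GAPT, a membrane adaptor known from B cells, was at 7.198, 10.78, 10.42 and 10.55, and CHN1, which switches off Rac, at 7.42, 10.50, 10.25 and 10.24. BIRC3, the peptidase DPP4 and ADGRG3 were 2.85, 2.71 and 2.65 above 0 h at 18 h, and covered 13.0%, 4.62% and 13.2% of the way back. On the lowered side the histone gene H2BC11 was at 10.01, 6.25, 6.60 and 6.90, 13.3% of the way back. IFI44L, RSAD2, USP18 and IFI44, all interferon stimulated, were at -3.36, -3.27, -2.60 and -3.16 against 0 h at 18 h. Their shares of the way back were -15.7%, -3.7%, -19.0% and -22.8%. IFI44L, USP18 and IFI44 were farther from 0 h on both return arrays. The return arrays of RSAD2 disagreed in direction, at -0.26 and 0.02 from 18 h. COL28A1 and IL13RA2 covered 13.2% and 16.5%. CCDC148 was at -6.66%, with return arrays that disagreed in direction (-0.44 and 0.06 from 18 h). Of the 16 genes with the largest 18 h changes, PPP1R15A and CCL2, described above, covered more than 50%. Apart from RSAD2, the lowered genes named here were under the filter level at 18 h, where differences carry little information.

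**Figure D3:**
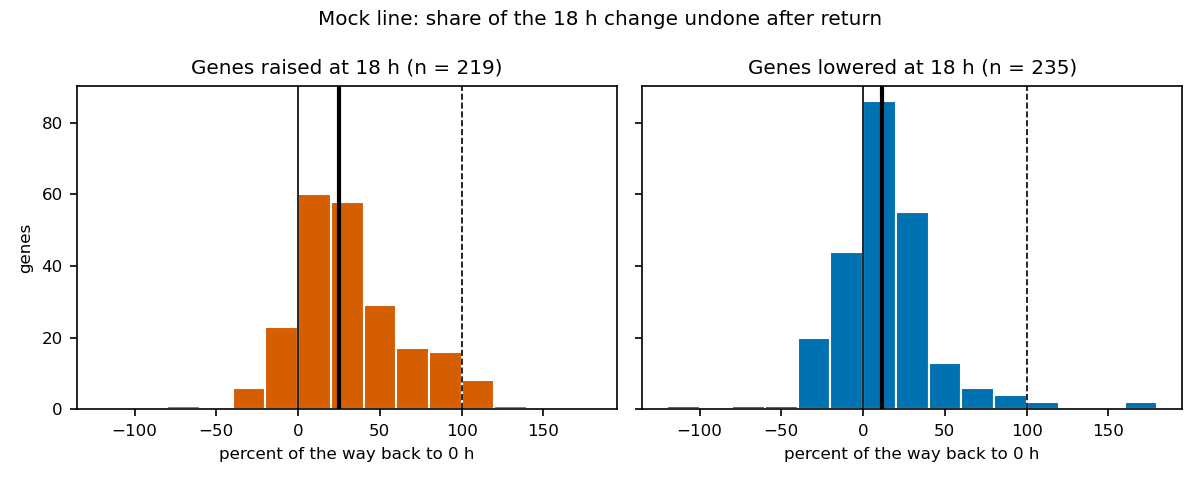
Number of genes (y axis) by percent of the 18 h change undone after return (x axis; 0 is the 18 h level, 100 the 0 h level) in Mock cells, for 219 raised and 235 lowered genes. Thick lines mark the medians of 25.1% and 11.9%, and few genes lie at or past the dashed line at 100.

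Of the 32 lower genes 30 had been above 0 h at 18 h, 17 of them at least 2-fold, and 19 were within 0.5 of 0 h after return. Of the 21 higher genes 16 had been below 0 h at 18 h, 7 of them at least 2-fold, and 9 were within 0.5 of 0 h after return. Over all genes 2.09% were at least 2-fold above 0 h at 18 h and 2.24% below. Shares of all genes for the other counts were not taken. The 18 h array enters both the return change and the 18 h change, so its error alone favours opposite signs. In a test of return against 0 h added after the data were seen, 14 of the 21 were above 0 h and 0 below by limma, and of the 32 lower genes 11 were below and 1 above. In either direction that test called 26 of the 53 genes and 41.4% of all genes. The lower genes called, both directions together, do not exceed that background. Shares of all genes above and below 0 h were not taken, so these counts show no excess past 0 h. Of the 53 genes, 12 had changed by under 0.5 at 18 h: the rising BCL3, HMOX1, TSKU, CISH, SEMA7A, GEM and SNAI1, and the falling RAB39A, EFNA1, FBXO5, AKAP5 and RCAN1. BCL3, a nuclear partner of NF-kB, was at 9.15, 9.07, 10.32 and 10.43. CISH, a feedback inhibitor of cytokine signalling, was at 7.60, 7.56, 8.78 and 8.72. TSKU, a secreted leucine-rich protein, was at 8.06, 8.02, 9.07 and 9.06. In these 3 the 0 h and 18 h arrays were level and both return arrays stood above them. SEMA7A, a membrane semaphorin, and GEM, a small GTPase that acts on calcium channels, were at 8.56, 8.81, 10.09 and 10.12, and at 7.54, 7.76, 8.94 and 9.18. ZFAND2A, a proteasome-associated stress gene, was higher at 18 h and rose again, at 8.32, 9.08, 10.51 and 10.55. The S18D2 array alone gave 34 such genes in place of 12. Without it the calls of SEMA7A and GEM were lost (adjusted p = 0.0622 and 0.0955).

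The 2 h array of calcium removal gives a second medium change in the same line, and its difference from 0 h shares no array with the return change. Of the 32 genes lower on return, 29 were above 0 h at 2 h, a count for which the share of all genes was not taken. At least 2-fold above 0 h were 12 of them, against a background of 1.08%. They were PPP1R15A, CCN2, CHAC1, ATF3, CREBRF, CCN1, ZNF699, GADD45B, RCAN1, TXNIP, AMOTL2 and PLAG1. CHAC1, for example, stood at 11.49 at 2 h and CCN2 at 11.56, higher than at any later step. Of the 21 higher genes 3 were also at least 2-fold up at 2 h: CYP1A1 at 11.22, TIPARP at 12.74 and EPHA4 at 9.47. TNS4 (9.17) and IL10RA (6.44) were 2-fold lower at 2 h, against a background of 0.0953%.

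**Figure D4:**
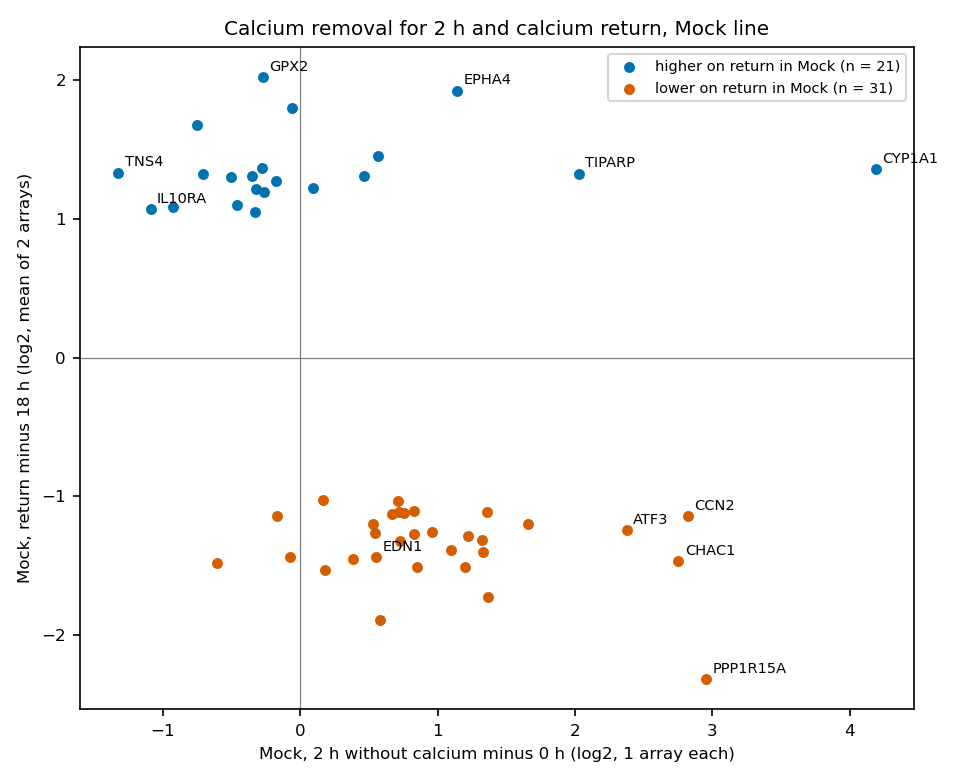
Change after 2 h without calcium against 0 h (x axis, log2, 1 array each) and change on return against 18 h (y axis, log2, mean of 2 arrays) in Mock cells, for the 21 higher and 31 symbol-named lower genes. The lower genes lie mostly to the right of 0, while CYP1A1, TIPARP and EPHA4 are high in both.

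The 2 return arrays differed from each other by a median of 0.14 among the 53 genes, with a largest gap of 0.61 in CCN1, against 0.07 over all kept genes. The array with 12-HHT had the higher signal in 15 of the 21 higher and in 26 of the 32 lower genes. The share of all genes was not taken for these counts, and an effect of 12-HHT on them was not tested. No gene moved at least 0.58 in opposite directions on the 2 arrays (0 genes by size, no test).

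In the BLT2 line, measured on its own arrays, more genes were counted as changed at the same step. All changes of a line are taken from its 1 array at 18 h, whose own error enters each of them. By the size rule 139 of its genes were higher (1.32%) and 92 lower (0.876%), and limma called 2109 higher (20.1%) and 1962 lower (18.7%). Of the 21 Mock genes that were higher 20 had the same direction in BLT2 cells, and of the 32 lower 29, where 65.8% of all genes did. By the size rule 9 of the 21 and 15 of the 32 were shared, 42.9% and 46.9% of the Mock lists and 6.47% and 16.3% of the BLT2 lists. The median change of the higher genes was 1.31 in Mock and 1.07 in BLT2 cells, and of the lower genes -1.30 and -1.13. Because these genes were picked by their Mock change, the Mock medians are larger through the choice itself. The lines cannot be ranked by them.

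A limma test of the difference itself called 863 genes (8.22%), 234 with the higher change in Mock (2.23%) and 629 with the lower (5.99%), and between 332 and 406 when 1 return array of either line was left out. Among the 53 genes it called 7. CCL2 fell in Mock and rose from 9.69 to 11.86 and 11.87 in BLT2 cells. EDN1 and RAB39A had lower changes in Mock, and PRDM1 rose less there. GPX2, ZFAND2A and CISH rose more in Mock, by 1.49 ± 0.23, 1.00 ± 0.10 and 0.98 ± 0.11 over BLT2. The calls of GPX2, EDN1 and PRDM1 were lost without 1 return array, with adjusted p of up to 0.0544, 0.0509 and 0.0867.

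In cholesterol and fatty acid synthesis the change was lower in Mock for 12 of 18 genes, among them the synthase HMGCS1 (0.00 in Mock and 1.41 in BLT2), INSIG1, the sterol-regulated anchor of SREBP (0.42 and 2.06), and FDFT1 (0.45 and 1.90). Of 17 interferon stimulated genes 8 had a lower change in Mock, with IFI44 at -0.72 and 1.86, and of 16 NF-kB targets and cytokines 6, with CXCL10 at -0.34 and 2.15. The Mock change of IFI44 was measured under the filter level. In DNA replication 7 of 29 genes, in p53 targets 7 of 18 and in the unfolded protein response 6 of 23 had a higher change in Mock, where the median was 0.06, 0.02 and 0.04 against -0.31, -0.33 and -0.31 in BLT2 cells. Of 17 YAP and TEAD targets 0 differed between the lines by limma, a count near the background of 8.22%. Their values were not alike throughout: CCN2 changed by -1.14 in Mock and -2.36 in BLT2 cells (difference 1.21 ± 0.30, limma adjusted p = 0.0625), and ANKRD1 by -1.12 and 0.10 (adjusted p = 0.388). By limma 10 of 23 tight junction genes rose and 1 fell in BLT2 cells, against 20.1% and 18.7% of all genes. The change differed between the lines for 3 of them, MARVELD2, F11R and CGNL1, where 8.22% of all genes differed.

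**Figure D5:**
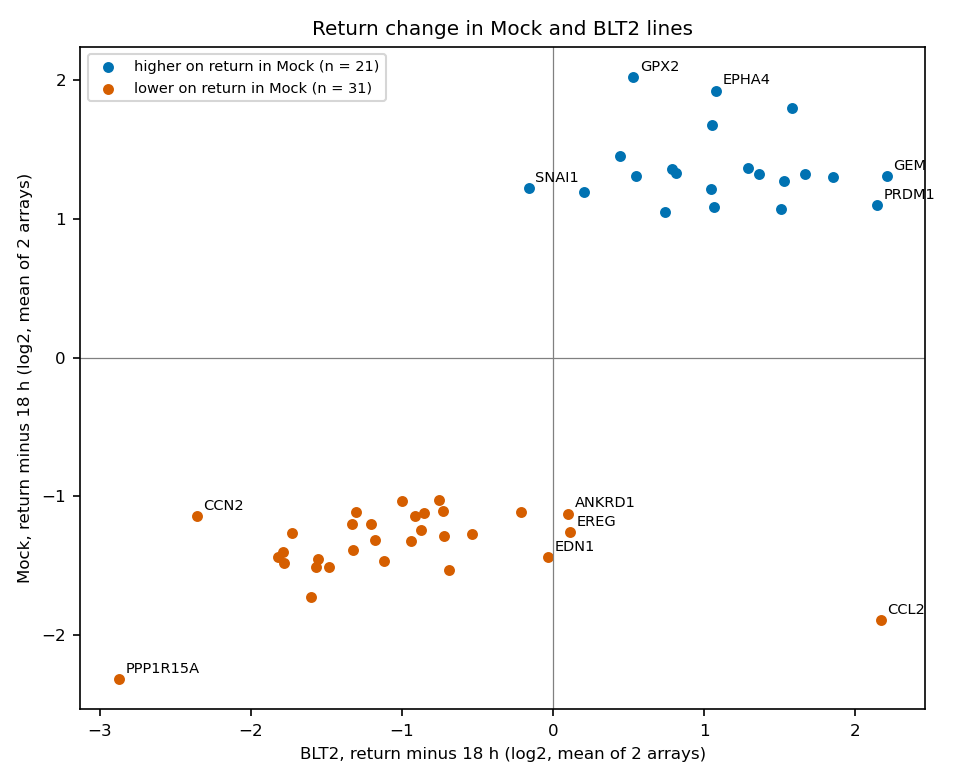
Return minus 18 h (log2, mean of 2 arrays) in the BLT2 line (x axis) and the Mock line (y axis) for the 21 higher and 31 symbol-named lower genes of the Mock line. Nearly all keep their direction; CCL2 is at -1.89 in Mock and 2.17 in BLT2 cells.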

How the data were processed

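Log2 signals from GeneChip Canine Gene arrays, deposited by the authors as 1 table of 32391 probe sets, were analysed. Affymetrix Expression Console and GCRMA are named in the submitters' processing notes, and GCRMA corrects background and scales arrays to a shared distribution. Versions are not given in the sources used here. Probe sets with 1 symbol (16545) gave 15947 genes, each read from its brightest probe set on average. A signal over 7.21, the table's overall median, in 2 or more of the 10 arrays was required, which 10498 genes met. A gene that passed through its high arrays alone had room to differ. No normalization was added. Changes ± SE are from limma 3.58.1 (R 4.3.3), fitted to all 10 arrays in 8 classes of line and step, with the 2 return arrays of a line as 1 class. This leaves 2 residual degrees of freedom, with a prior of 3.85. P-values were Benjamini-Hochberg adjusted over all kept genes. With so few arrays, their number limits the precision. They measure the spread between return arrays, which may be technical.

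The share of the way back is the mean return change over 0 h minus 18 h. Genes and lists were chosen with earlier results of these data known. The 38 lists held 784 members, repeats counted, of which 594 were kept. Named genes were up to 15 per direction by the smaller return change among those also called by limma, up to 4 of each list with a 2-fold change, 13 fixed genes, the 8 largest 18 h changes each way, up to 6 farthest past 0 h each way, and up to 6 each way that differed between lines. On simulated data with 10498 genes, the Mock return test found 100% of those shifted by ±1 and by ±2, with 20 unchanged genes called. That noise had the fitted spread on every array, so an error of the 18 h array larger than this spread is not covered. With a median SE of 0.084 for the change, a high recovery of such shifts was built in. It does not measure recovery in the real data, where KLF10, EREG and ANKRD1 changed by more than 1 and were not called. Promoter motifs were not analysed here. Other settings were no or a stricter filter, quantile normalization, median centring, mean of probe sets, an intensity trend, fewer arrays and an additive model.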

Additional observations from a re-analysis of the deposited data

Results flagged for a closer look

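The return change differed between the Mock and BLT2 lines for 863 genes by limma, each line measured on its own arrays. The chemokines CCL2, CCL7 and CXCL10 had changes in Mock that were -4.06, -2.51 and -2.48 relative to BLT2. The channel TRPA1 differed by -3.08, IFI44 by -2.58 and the opsin OPN3 by -2.37. In the other direction the collagen COL12A1 differed by 2.11, HERPUD1, which serves degradation at the endoplasmic reticulum, by 1.85, the chitobiase CTBS by 1.58, MT1E by 1.54, the adhesion receptor ADGRV1 by 1.53 and GPX2 by 1.49. In BLT2 cells TRPA1 rose from 7.37 to 10.70 and 10.30, while in Mock cells it was at 9.28, 9.40 and 9.27. COL12A1 went from 7.78 to 5.75 and 5.71 in BLT2 cells and was at 9.04, 8.97 and 9.22 in Mock cells. OPN3, CCL7 and IFI44 lay below the filter level on the Mock 18 h and return arrays, so their Mock changes carry little information. Of these 12 genes GPX2 was not called when 1 return array was left out, with an adjusted p of up to 0.0544. The cause of these differences was not tested.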

How the results depend on the processing

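No paired analysis was possible because each line and step has 1 array and the labels give no replicate numbers. Counts by the size rule stayed within 1.5 times under the filters, quantile normalization, median centring and the mean of probe sets. At 1.5-fold they were 72 higher and 238 lower. With 1 return array left out they ran from 22 to 24 higher and 35 to 84 lower, and the genes without an 18 h change from 12 to 34. Limma called 35 higher and 89 lower without a filter and 408 and 1006 with an intensity trend, and the additive model, which averages both lines, called 319 higher. Leaving out 1 Mock return array gave 43 to 111 higher and 125 to 502 lower. The difference between lines was called for 115 genes without a filter, 1797 with the trend, and 332 to 406 with 1 return array left out. The median share of the way back was 22.7% to 30.1% for raised and 11.3% to 13.7% for lowered genes with 1 return array. For lowered genes it was 10.0% with median centring, 9.89% for genes chosen in BLT2 cells and -1.85% for genes changed at least 4-fold at 18 h, where it reversed, against 13.1% for raised genes of that size. Of 50 genes that met the size rule and were called, 37 stayed called without either Mock return array. The 13 that did not were OSR1, SEMA7A, GEM, SNAI1, IL10RA, KCNN4, PRDM1, AMOTL2, CHAC1, CCN1, CCN2, ARID5B and GADD45B, each lost without the S18D2 array. Of 66 listed genes called with a smaller change, 20 stayed called. Among 83 named genes 0 called changes reversed in limma under the 7 settings run on them, and 18 of 55 calls were lost without a filter. Causes of these shifts were not tested, and without 1 Mock return array the error came from the BLT2 return pair alone. Median centring moved the median of all genes from 0.01 to -0.03 and turned the sign of list medians close to 0, such as cholesterol synthesis, p53 targets and polarity.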

Other observations

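Some listed genes outside the groups above were also called by limma on return in Mock cells. The clock repressor NFIL3 fell by 0.81 ± 0.09, with 0 of 11 clock genes higher. The linker histones H1-2 and H1-4 fell by 0.77 ± 0.13 and 0.56 ± 0.07, while H2BC11 was at 0.50 ± 0.14 without a call. The collagen receptor ITGA1 fell by 0.79 ± 0.10 and the proteoglycan SDC1 rose by 0.59 ± 0.09. The cell cycle inhibitor CDKN2B fell by 0.75 ± 0.08. TNFAIP3, a feedback inhibitor of NF-kB, fell by 0.70 ± 0.11, whereas TNFAIP2 rose by 0.94 ± 0.08. The calls of H1-2, H1-4, SDC1 and TNFAIP3 were lost without 1 Mock return array, with adjusted p of up to 0.09.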
